A study of Mus musculus with 10 samples.

Results

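The genes described here are 7 Toll-like receptors (Tlr1, Tlr2, Tlr3, Tlr4, Tlr6, Tlr7 and Tlr13), the receptor-like protein gene Cd180, its partner Ly86 and the adaptor gene Myd88. They were chosen by symbol, as 10 of the 56884 genes in the count table, and all 10 had enough reads to be tested. They were measured by bulk RNA-seq of hippocampus, with 1 library per mouse, from 5 void-treated and 5 DHT-treated females. Every mouse was an ovary-intact PS19 female, which carries human 1N4R Tau with the P301S mutation under the mouse Prnp promoter. At 6 months of age each female received a SILASTIC implant that was either empty (void) or held 10 mm of dihydrotestosterone (DHT), an androgen that aromatase does not convert to estrogen. Tissue was taken after 12 weeks, at 9 to 9.5 months, following perfusion with PBS. No wild-type females were analysed here, so the comparison is of DHT against void within mice that all carry the Tau transgene.

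Toll-like receptors recognise conserved molecules of microbes and of damaged cells and signal through a cytoplasmic TIR domain. Most of them recruit the adaptor MYD88, which activates IRAK kinases and NF-κB, whereas TLR3 signals through TRIF, and TLR4 uses both routes. CD180 resembles TLR4 in its extracellular part but lacks a TIR domain. It is held at the cell surface by MD-1, the product of Ly86, and it is known to modulate the response to lipopolysaccharide. In brain, microglia are the main cells that express these genes, and TLR3 is also expressed by astrocytes.

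Promoter sequences are shown for the 4 genes with the largest called differences and for Myd88, the gene with the smallest difference. They are RefSeq promoters of build GRCm38.p6, written 5′ to 3′ on the strand of the gene, from 250 bases before to 50 bases after a transcription start. Of the 10 genes, 8 matched this table, through 11 windows. Cd180 and Tlr1 have more than 1 window, and the window shown is the first for Cd180 and the one with a match for Tlr1. Capitals mark a match to a searched motif.
Tlr2, chr3:83841559-83841858, minus strand: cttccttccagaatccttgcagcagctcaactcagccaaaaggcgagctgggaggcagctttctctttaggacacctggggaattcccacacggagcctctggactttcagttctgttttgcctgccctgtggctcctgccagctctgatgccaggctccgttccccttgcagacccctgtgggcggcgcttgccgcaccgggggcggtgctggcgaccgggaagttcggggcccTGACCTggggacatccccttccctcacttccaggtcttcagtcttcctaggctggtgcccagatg
Cd180, chr13:102693297-102693596, plus strand: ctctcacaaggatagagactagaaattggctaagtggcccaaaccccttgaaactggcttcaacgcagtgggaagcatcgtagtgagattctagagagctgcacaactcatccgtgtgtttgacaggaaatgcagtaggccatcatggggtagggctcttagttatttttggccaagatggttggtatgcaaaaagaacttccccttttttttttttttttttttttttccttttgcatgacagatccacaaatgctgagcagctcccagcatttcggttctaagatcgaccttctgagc
Ly86, chr13:37345095-37345394, plus strand: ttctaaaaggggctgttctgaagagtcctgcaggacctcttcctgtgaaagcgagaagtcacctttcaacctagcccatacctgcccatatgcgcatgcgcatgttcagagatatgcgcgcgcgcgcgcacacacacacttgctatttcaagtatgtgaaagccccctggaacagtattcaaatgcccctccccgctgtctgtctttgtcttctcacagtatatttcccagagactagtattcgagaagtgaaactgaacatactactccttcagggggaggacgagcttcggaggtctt
Tlr1, chr5:64933509-64933808, minus strand: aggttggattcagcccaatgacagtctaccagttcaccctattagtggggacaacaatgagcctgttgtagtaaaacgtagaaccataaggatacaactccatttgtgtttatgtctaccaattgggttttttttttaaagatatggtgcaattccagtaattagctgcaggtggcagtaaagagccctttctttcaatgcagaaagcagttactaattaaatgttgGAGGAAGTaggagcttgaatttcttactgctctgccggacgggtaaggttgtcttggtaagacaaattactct
Myd88, chr9:119339969-119340268, minus strand: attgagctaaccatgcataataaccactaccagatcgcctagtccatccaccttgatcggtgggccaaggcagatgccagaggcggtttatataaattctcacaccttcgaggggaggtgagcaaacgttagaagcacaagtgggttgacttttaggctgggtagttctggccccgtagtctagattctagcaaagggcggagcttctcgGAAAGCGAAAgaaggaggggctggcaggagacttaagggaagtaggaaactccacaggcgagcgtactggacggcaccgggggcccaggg

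The motifs were chosen after values of these genes had been seen, and both strands were searched. GAGGAAGT, bound by the myeloid factor PU.1, was found in 1 window of Tlr1 and in 3.20% of 32851 promoter windows. Its core GAGGAA, which overlaps it, was found in windows of Tlr1 and Tlr13 and in 28.3% of all windows. The interferon-stimulated response element, searched as GAAA, any 2 bases and GAAA, was found in Myd88 and Tlr6 and in 3.44% of all windows. An NF-κB sequence, searched only as GGGA, any base and TTTCC, was found in Tlr3 and in 0.411% of all windows. Other forms of that site were not searched, so its absence from the other windows covers this form alone. AGGTCA, a core element of nuclear receptors, was found on the reverse strand of Tlr2 and in 16.3% of all windows. None of the 5 motifs was found in the Cd180 and Ly86 windows, which says only that these letters are not in them.

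All 10 genes had a higher mean in DHT-treated than in void-treated females, and 6 rose at an adjusted p under 0.05 by edgeR's quasi-likelihood method, Benjamini-Hochberg adjusted over 17622 genes. Those were Tlr1, Tlr2, Tlr7, Tlr13, Cd180 and Ly86, against 5.22% of all genes tested called higher. Tlr1, Tlr2, Cd180 and Ly86 also passed a log2 fold change of 1, against 2.17% of all genes tested. Tlr3, Tlr4, Tlr6 and Myd88 did not pass the test. No member was called lower in edgeR, against 0.261% of all genes tested and 0.0227% beyond the fold limit. DESeq2 called none lower, against 226 of the 35297 genes it fitted. At an unadjusted p under 0.05 none was lower, against 4.22% of all genes in edgeR and 3.56% in DESeq2. With shares this small, the lack of lower members is not a result about these 10 genes. In edgeR 9 were higher at an unadjusted p under 0.05, against 13.1% of all genes tested. The median log2 fold change was 0.985 over the 10 genes and 0.01 over all genes tested, of which 52.4% were positive. In bulk tissue, fewer or more cells of a type cannot be told apart from less or more RNA per cell.

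**Figure D1:**
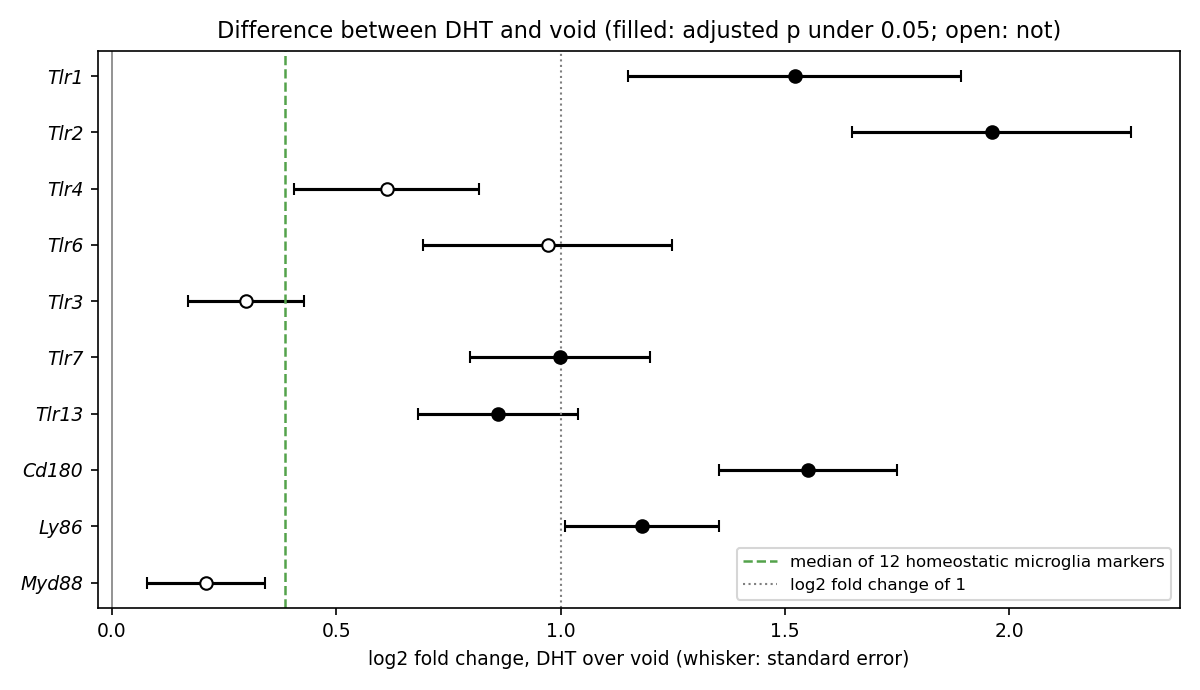
Log2 fold change of DHT-treated over void-treated females for each of the 10 genes (n = 5 mice per group), filled where the adjusted p was under 0.05. The whisker is a standard error derived as the absolute log2 fold change over the square root of edgeR's quasi-likelihood F statistic. The dashed line is the median of 12 homeostatic microglia markers and the dotted line a log2 fold change of 1. Tlr2 has the largest value, 1.96, and Myd88 the smallest, 0.21, and all 10 are above 0.

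Libraries held 27188854 to 47113661 counts in the void group and 33523527 to 45947784 in the DHT group. The void libraries stood at positions 4 to 11 and the DHT libraries at 18 to 23 of the labels' numbering, so the effect of that order cannot be told apart from the effect of DHT. Markers of hippocampal fields were present in every library, with summed levels of 457 to 654 CPM (counts scaled by normalized library size) in void-treated and 456 to 645 CPM in DHT-treated females. Choroid plexus markers summed to 118 to 1940 CPM in void-treated and 2230 to 3190 CPM in DHT-treated females, and all 12 were higher on average, 4 of them past the test. With the choroid plexus level as a covariate, 0 of all 17622 genes tested were called. The 10 genes were thus not called either, with adjusted p of at least 0.532. In that fit 6 of them were higher at an unadjusted p under 0.05, against 5.66% of all genes tested, and log2 fold changes ranged from 0.33 (Tlr6) to 2.11 (Tlr1). Its part in the results beyond that was not tested.

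**Figure D2:**
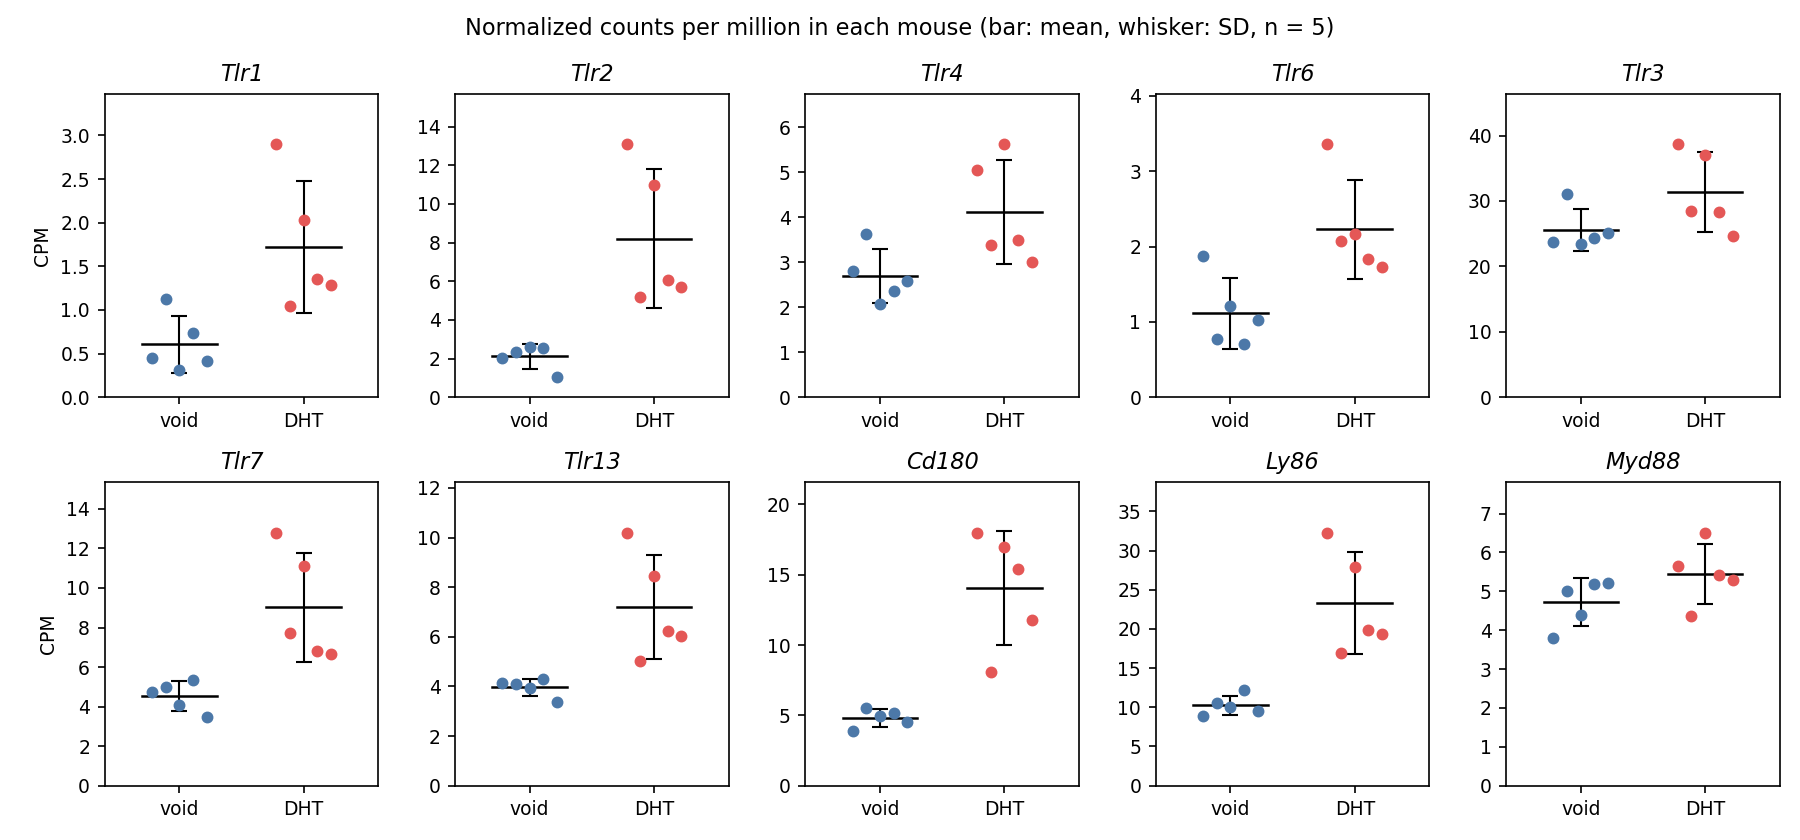
Level of each of the 10 genes in every mouse, in CPM on an axis that starts at 0, by treatment, with 1 point per mouse, a bar at the mean and whiskers of 1 SD (n = 5 per group). Tlr2, Tlr7, Tlr13, Cd180 and Ly86 have every DHT-treated female above every void-treated female.

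Of the 10 genes, 5 had groups that did not overlap: Tlr2, Tlr7, Tlr13, Cd180 and Ly86. Over all genes tested, 5.39% had every DHT-treated female above every void-treated one. In the values that follow, void-treated females are given in the order of replicates 4, 5, 9, 10 and 11 and DHT-treated females in the order 1, 2, 3, 5 and 6.

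Tlr2 encodes the receptor for bacterial lipoproteins, which pairs with TLR1 or TLR6. Its level was 2.05, 2.33, 2.61, 2.55 and 1.05 CPM in void-treated and 13.1, 5.18, 11, 6.05 and 5.72 CPM in DHT-treated females. The groups did not overlap, with the lowest void value in replicate 11 and the highest DHT value in replicate 1. The mean rose from 2.12 ± 0.636 to 8.21 ± 3.6 CPM (SD, n = 5 mice per group), and its log2 fold change was 1.96 (SE 0.31, adjusted p = 0.00761). It stayed called when any 1 mouse was left out, with log2 fold changes of 1.7 to 2.09. Tlr2 (ENSMUSG00000027995) lies on chromosome 3.

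Tlr1, its partner for triacylated lipopeptides, was the least abundant of the 10 genes, with 10 to 35 counts per void library and 42 to 106 per DHT library. Its level was 0.444, 1.12, 0.310, 0.738 and 0.419 CPM in void-treated and 2.90, 1.04, 2.03, 1.35 and 1.28 CPM in DHT-treated females. The groups overlapped at void replicate 5 and DHT replicate 2. The mean was 0.606 ± 0.327 CPM in void-treated and 1.72 ± 0.755 CPM in DHT-treated females, a log2 fold change of 1.52 (SE 0.37, adjusted p = 0.0348). This call depended on the mice included, since it held in 3 of the 10 fits that left out 1 mouse, with adjusted p from 0.0232 to 0.110. Its identifier is ENSMUSG00000044827.

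Tlr6, the partner for diacylated lipopeptides, ranged from 0.701 to 1.88 CPM in void-treated and 1.73 to 3.36 CPM in DHT-treated females. DHT replicate 1 was its highest and void replicate 4, at 1.88 CPM, lay above DHT replicates 5 and 6. The log2 fold change was 0.97 (SE 0.28, adjusted p = 0.0684), which did not pass the test. It was called without void replicate 4 (1.26, adjusted p = 0.0316) and by DESeq2 (0.95, adjusted p = 0.0202). Its identifier is ENSMUSG00000051498.

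Tlr1 and Tlr6 are neighbours on the minus strand of chromosome 5 and share sequence. Of all words of 100 bases, 259 were common to both, which is 7.89% of those in Tlr1 and 7.09% of those in Tlr6. The other 8 genes shared none with any gene, with transcripts read in their own sense only. Words on the opposite strand were not searched. The longest common stretch of coding sequence is 229 bases, from position 1468 to 1696 of 2385 in Tlr1-202 and from 1507 to 1735 of 2418 in Tlr6-201. The 60 bases at its middle, from GENCODE M21 transcripts, are shown because a read within the stretch cannot by itself tell the genes apart. The paper names paired-end reads of 100 bases, so the mate of such a read can fall outside the stretch.
Shared Tlr1 and Tlr6 coding sequence: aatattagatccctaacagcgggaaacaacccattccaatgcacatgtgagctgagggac
How the counting treated such reads is not given in the sources used here, so values of both genes are uncertain to that extent.

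Tlr4 (ENSMUSG00000039005, chromosome 4), the lipopolysaccharide receptor, was at 2.81, 3.64, 2.08, 2.36 and 2.58 CPM in void-treated and 5.05, 3.38, 5.63, 3.50 and 3.01 CPM in DHT-treated females. DHT replicates 1 and 3 stood above all void mice, and the other 3 were not above void replicate 5. The log2 fold change was 0.61 (SE 0.21), and it did not pass the test (adjusted p = 0.119), nor did it in any of the 10 fits without 1 mouse.

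Tlr7 (ENSMUSG00000044583, chromosome X), an endosomal receptor for single-stranded RNA, was at 4.76, 4.99, 4.09, 5.35 and 3.45 CPM in void-treated and 12.8, 7.70, 11.1, 6.82 and 6.67 CPM in DHT-treated females. The groups did not overlap, and DHT replicates 1 and 3 were again the highest. The mean rose from 4.53 ± 0.758 to 9.03 ± 2.78 CPM, with a log2 fold change of 0.999 (SE 0.20, adjusted p = 0.0149). Without void replicate 11 it was no longer called (adjusted p = 0.0568).

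Tlr13 (ENSMUSG00000033777, chromosome X), an endosomal receptor for bacterial ribosomal RNA that mice have and humans lack, was at 4.12, 4.09, 3.94, 4.28 and 3.36 CPM in void-treated females. In DHT-treated females it was at 10.2, 5.03, 8.44, 6.22 and 6.04 CPM. The groups did not overlap, and the void mice lay close together. The log2 fold change was 0.86 (SE 0.18, adjusted p = 0.0176). The call was lost without void replicate 11 (adjusted p = 0.0682) or DHT replicate 3 (adjusted p = 0.0547).

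Tlr3, the endosomal receptor for double-stranded RNA, had the highest CPM of the 10 genes. It ranged from 23.5 to 31.1 CPM in void-treated and 24.6 to 38.7 CPM in DHT-treated females, so the groups overlapped. Its log2 fold change of 0.30 (SE 0.13) did not pass the test (adjusted p = 0.255). Summed astrocyte markers were at 5100 to 7200 CPM in void-treated and 5840 to 7530 CPM in DHT-treated females, with 1 of 5 called (Gfap, 1.18, adjusted p = 0.00761), and their part in the Tlr3 level was not tested. Tlr3 (ENSMUSG00000031639) lies on chromosome 8.

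Cd180 (ENSMUSG00000021624, chromosome 13) was at 3.89, 5.50, 4.93, 5.17 and 4.55 CPM in void-treated and 18, 8.09, 17, 15.4 and 11.8 CPM in DHT-treated females. The groups did not overlap, and the lowest DHT-treated female, replicate 2, was still above the highest void-treated one. The mean rose from 4.81 ± 0.617 to 14.1 ± 4.07 CPM, a log2 fold change of 1.55 (SE 0.20, adjusted p = 0.0067). Cd180 ranked 7 of 17622 genes by p, and was called in all 10 fits that left out 1 mouse (1.41 to 1.7).

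Ly86 (ENSMUSG00000021423, chromosome 13), which encodes the secreted CD180 partner MD-1, was at 8.92, 10.6, 9.99, 12.2 and 9.59 CPM in void-treated and 32.3, 16.9, 27.9, 19.9 and 19.4 CPM in DHT-treated females. As for Cd180, the groups did not overlap and replicate 2 was the lowest DHT-treated female. The mean rose from 10.3 ± 1.27 to 23.3 ± 6.53 CPM, a log2 fold change of 1.18 (SE 0.17, adjusted p = 0.00671). It was called in all 10 fits without 1 mouse, with log2 fold changes of 0.999 to 1.28. The ratio of Ly86 to Cd180, per kilobase of exon, had a median of 2.61 in void-treated (2.40 to 2.94) and 2.03 in DHT-treated females (1.6 to 2.59).

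Myd88 (ENSMUSG00000032508, chromosome 9), the adaptor used by every Toll-like receptor here except TLR3, was at 3.81, 5.02, 4.40, 5.20 and 5.21 CPM in void-treated and 5.66, 4.37, 6.51, 5.42 and 5.30 CPM in DHT-treated females. The groups overlapped, and the void mean of 4.73 ± 0.612 CPM and the DHT mean of 5.45 ± 0.770 CPM differed by a log2 fold change of 0.21 (SE 0.13). It did not pass the test (adjusted p = 0.48). The ratio of Tlr2 to Myd88 per kilobase of exon had a median of 0.418 in void-treated (0.172 to 0.506) and 1.01 in DHT-treated females (0.922 to 1.98).

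**Figure D3:**
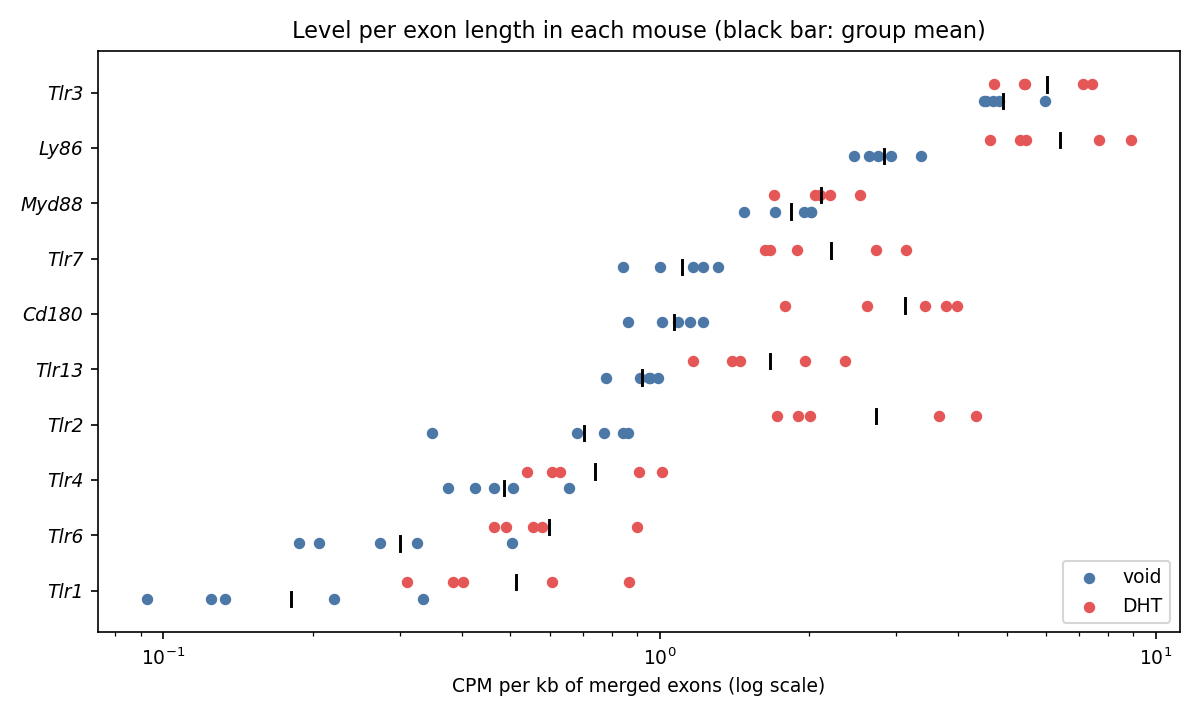
Level of each gene in CPM per kilobase of merged exons, on a log axis, by treatment, with 1 point per mouse (5 per group) and a black bar at the group mean. Tlr3 has the highest void mean, 4.91, and Tlr1 the lowest, 0.181, while Ly86 has the highest DHT mean, 6.40.

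Levels of different genes were compared per kilobase of exon. In void-treated females the order of the means was Tlr3 (4.91 CPM per kilobase), Ly86 (2.83), Myd88 (1.84), Tlr7 (1.11), Cd180 (1.07), Tlr13 (0.92), Tlr2 (0.702), Tlr4 (0.485), Tlr6 (0.299) and Tlr1 (0.181). In DHT-treated females the order was Ly86 (6.40), Tlr3 (6.03), Cd180 (3.12), Tlr2 (2.72), Tlr7 (2.21), Myd88 (2.12), Tlr13 (1.67), Tlr4 (0.741), Tlr6 (0.598) and Tlr1 (0.514). In void-treated females Tlr3, Ly86 and Myd88 had ranges clear of their neighbours and of each other, and from Tlr7 downward each gene's range overlapped that of the next. In DHT-treated females the ranges of Ly86 and Tlr3 overlapped, those of Cd180, Tlr2, Tlr7, Myd88 and Tlr13 overlapped from each to the next, and so did those of Tlr4, Tlr6 and Tlr1.

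Some exon bases lie opposite another gene in GENCODE M21, and the handling of strand is not given in the sources used here. The shares were 4.04% for Cd180 (opposite Mast4, log2 fold change 0.13), 11.3% for Myd88 (opposite Acaa1a, 0.12) and 7.32% for Tlr3 (opposite Gm45542, not tested). Without strand, reads from such bases cannot be told apart, and neither Mast4 (adjusted p = 0.506) nor Acaa1a (adjusted p = 0.881) passed the test.

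Microglia markers moved with treatment, and their part in the results was not tested beyond the values given here. The 12 homeostatic microglia markers (such as P2ry12, Tmem119 and Csf1r) summed to 499 to 571 CPM in void-treated and 682 to 953 CPM in DHT-treated females, and 4 of the 12 were called higher. Their mean log2 CPM was 4.98 in void-treated and 5.40 in DHT-treated females, a difference of 0.42. Expressed relative to that mean in each mouse, Tlr2, Cd180, Ly86 and Tlr7 still had groups that did not overlap, with differences of 1.47, 1.07, 0.72 and 0.53 on the log2 scale. That is 4 of 10 genes, and of all genes tested 0.925% had every DHT-treated female above every void-treated one on this scale. Tlr3 (-0.14) and Myd88 (-0.22) were the only members with a negative difference, and both overlapped. The void-treated and DHT-treated summed marker levels were 2.45 to 15.5 and 5.57 to 12.7 CPM for border macrophages, and 0.383 to 1.95 and 1.01 to 2.08 CPM for monocytes and neutrophils. Of the border macrophage markers 6 of 7 were tested, and of the monocyte and neutrophil markers only 2 of 8. None of those tested was called. Of the B cell markers, 2 were tested and neither was called: Ighm was at 11.1 to 16.1 CPM in void-treated and 14.8 to 33.0 CPM in DHT-treated females (log2 fold change 0.61, adjusted p = 0.169), and Pax5 at 0.155 to 0.360 and 0.269 to 0.817 CPM (0.85, adjusted p = 0.222). B cells also express Cd180, and their part in its level was not tested.

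**Figure D4:**
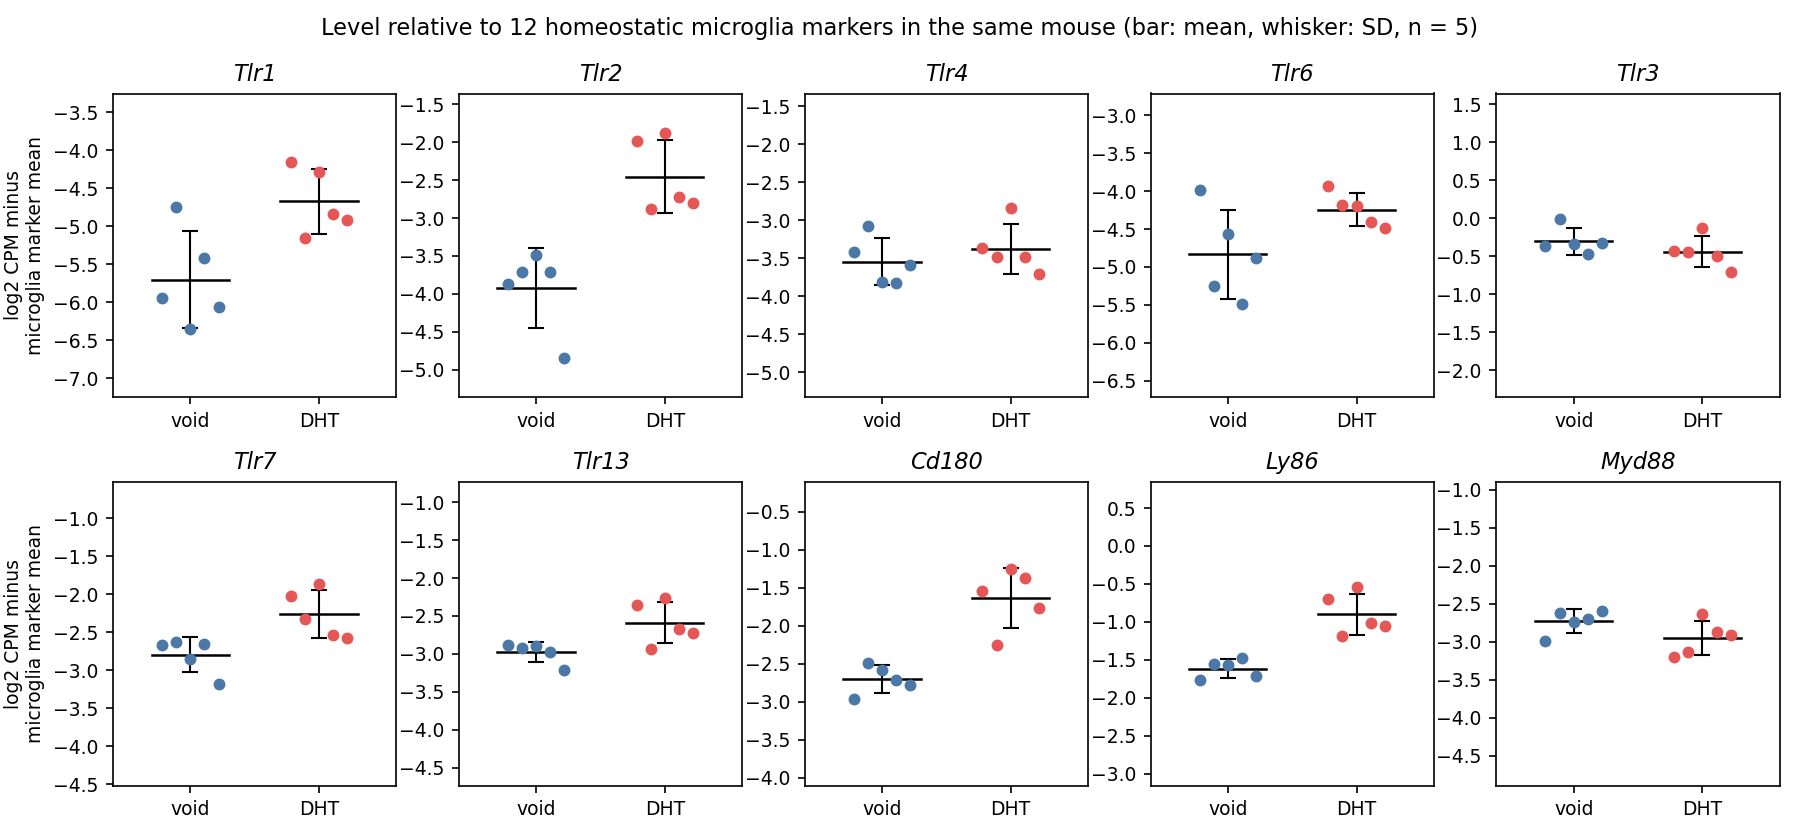
Each gene's log2 CPM minus the mean log2 CPM of 12 homeostatic microglia markers in the same mouse, by treatment, with 1 point per mouse, a bar at the mean and whiskers of 1 SD. Tlr2, Tlr7, Cd180 and Ly86 have groups that do not overlap, and Tlr3 and Myd88 have lower means in DHT-treated females.

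The rest of the Toll-like receptor pathway was read from lists of 75 genes, of which 60 were tested. In this set 15 rose and 0 fell in edgeR, against 5.22% and 0.261% of all genes tested, and the same shares are the background for each list that follows. At an unadjusted p under 0.05, 24 were higher and 0 lower, against 13.1% and 4.22% of all genes tested. DESeq2 called 17 higher and 0 lower, with 1220 higher and 226 lower among the 35297 genes it fitted. With the choroid plexus covariate 0 of the 60 were called, as were 0 of all genes tested. The median log2 fold change was 0.19.

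Among other receptors, Tlr9, an endosomal receptor for CpG DNA, rose from 1.67 to 3.50 CPM (log2 fold change 1.07, adjusted p = 0.0139), 1 of the 3 tested. Of 10 coreceptor and trafficking genes, 3 rose. They were Cd14, the lipopolysaccharide coreceptor (1.31, adjusted p = 0.0067), Slc15a3, an endolysosomal transporter (1.05, adjusted p = 0.0067), and Unc93b1, which carries endosomal receptors to their compartment (0.92, adjusted p = 0.00948).

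Of 19 tested adaptors and kinases, 3 rose: Ticam2, the bridge from TLR4 to TRIF (1.11, adjusted p = 0.0133), Pik3ap1, an adaptor to phosphoinositide kinase (0.89, adjusted p = 0.0138), and the tyrosine kinase Btk (0.94, adjusted p = 0.0289). Of 9 negative regulators, only Inpp5d, a lipid phosphatase, was called (0.59, adjusted p = 0.013), and the list's median was -0.03.

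Of 24 listed genes that Toll-like receptor signals induce, 14 passed the expression filter, and the rest had too few counts to be tested. Of the 14 tested, 7 rose, with a median log2 fold change of 0.89. The filter can pass a gene of few void counts on its DHT libraries alone. The share and the median therefore partly reflect that selection. The chemokine genes Cxcl10 (3.11), Ccl5 (2.96), Ccl3 (2.50) and the cytokine gene Il1b (1.63) had adjusted p between 0.00761 and 0.013. The adhesion gene Icam1 (1.01, adjusted p = 0.0133) and the feedback inhibitor gene Socs3 (0.94, adjusted p = 0.0321) followed, with Ccl4 as the seventh. Of these, Ccl5, Il1b, Ccl4 and Ccl3 were at low levels, at most 9, 10, 12 and 22 counts in a void library. Of the endogenous ligand genes, 0 of 5 were called (edgeR, 1 at an unadjusted p under 0.05; DESeq2, 0), and Bgn had a log2 fold change of 0.46 (adjusted p = 0.105) and Vcan 0.15 (adjusted p = 0.473).

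**Figure D5:**
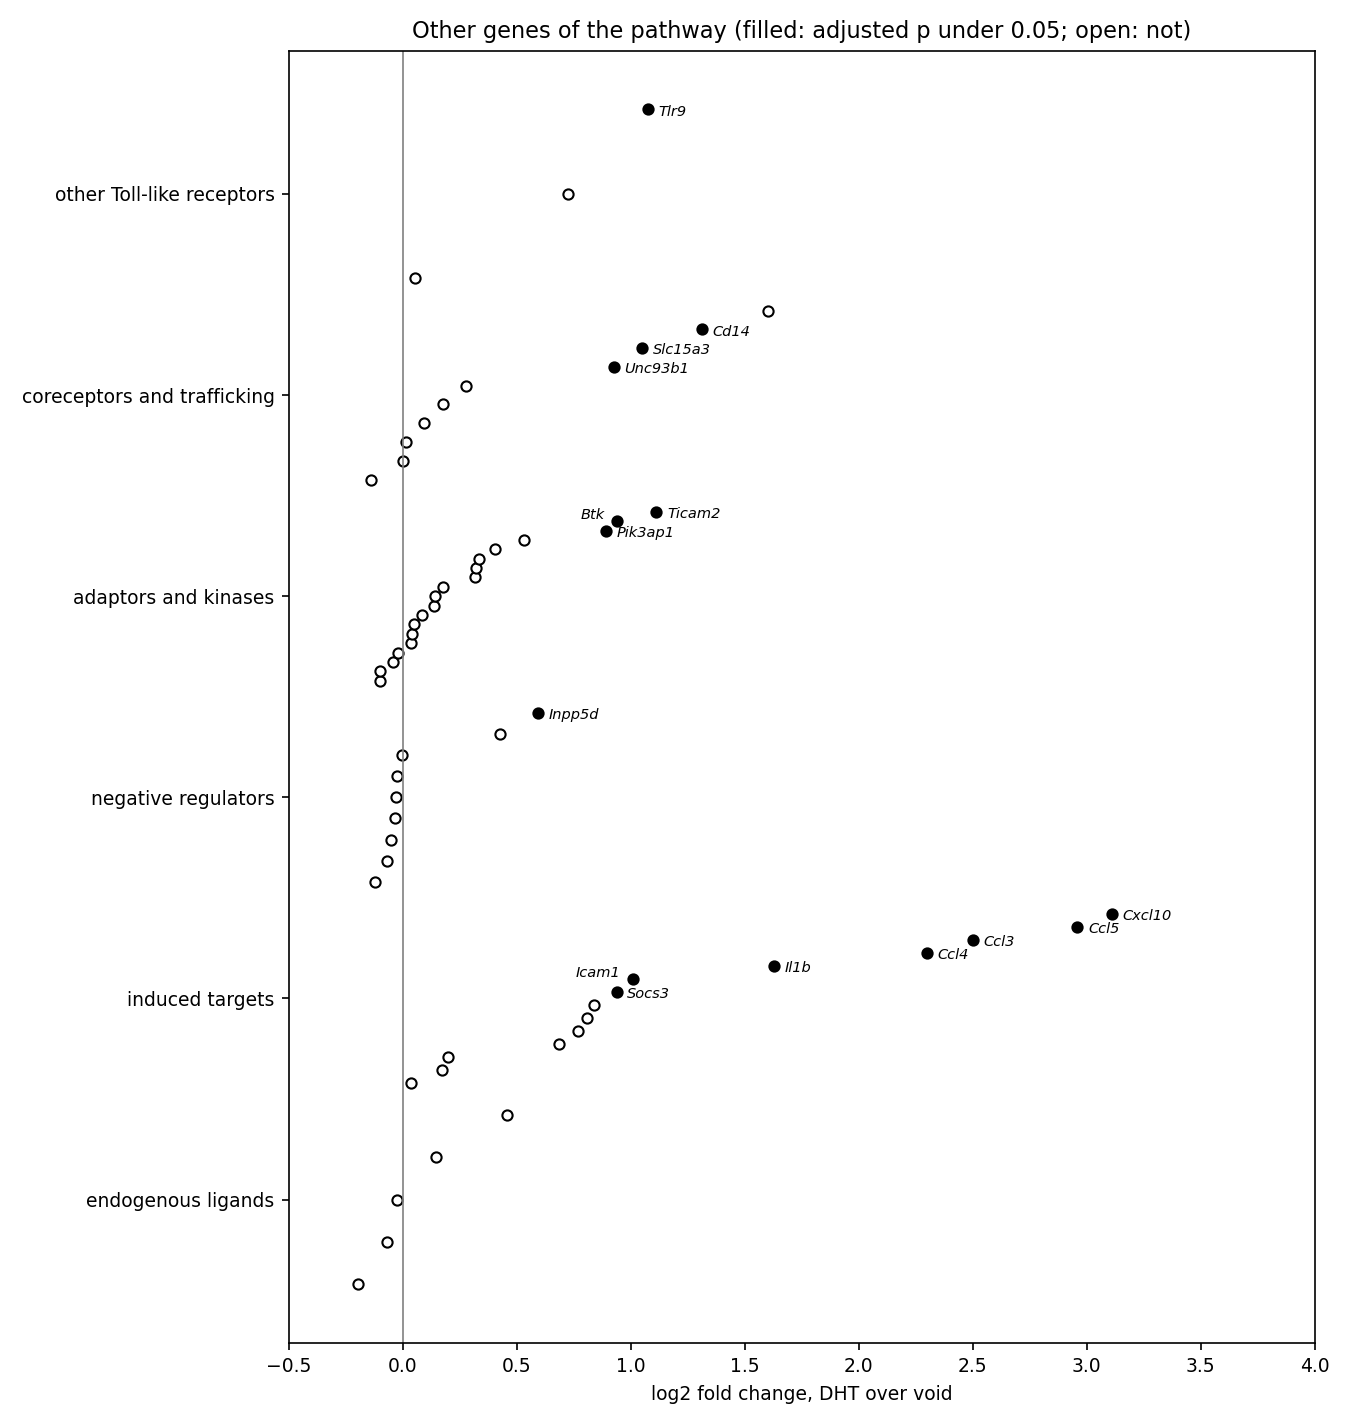
Log2 fold change of DHT-treated over void-treated females for each tested gene of the pathway lists, by list, with genes of an adjusted p under 0.05 filled and named. Of 60 tested genes 15 are called higher, and the 7 called induced targets include Cxcl10 at 3.11.

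Across the 10 mice, after subtracting group means of log2 CPM, the closest genes to Cd180 were Irf8, a myeloid transcription factor (Pearson r = 0.984), Axl and Syk. The closest to Ly86 were Ctss, a lysosomal protease (0.979), Lpcat2 and Dock2, and the closest to Tlr13 were Cnn3, Ctss and Tmem154. The closest to Tlr2 were Slc43a3 (0.954), Cyp4f13 and Lca5l, and the closest to Tlr7 were Ankrd28, 4833411C07Rik and Mob1a. For Myd88 they were Dhx58 (0.965), Ccl5 and D430040D24Rik, and for Tlr4 Wwtr1, Il13ra1 and Lactb2. For Tlr1 they were Naip6, Stab1 and Tal1, for Tlr3 Stard6, Gldn and Snx5, and for Tlr6 Gm10073, Gm45151 and Esm1. These are the highest of many correlations over 10 mice that share depth and tissue composition, and are a description. Among the members, the closest pairs were Tlr4 with Tlr3 (0.93) and Tlr13 with Ly86 (0.924), and Tlr6 had values of -0.433 to 0.394 with the others.

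Within the DHT group, replicate 1 was the highest mouse for 8 of the 10 genes and replicate 3 for the other 2. The lowest was replicate 2 for 6 genes and replicate 6 for 4.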

How the data were processed

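Bulk RNA-seq of hippocampus was measured in 10 mice, 1 library each, and groups were taken from the sample labels. The authors deposited raw counts per gene, made by cleaning reads with HTStream and aligning with STAR 2.7.10b. The paper names mm10 and the submitters' processing notes name mm39 and GRCm39, so no gene coordinates are given beyond the RefSeq promoters. The annotation, strand handling and treatment of shared reads are not given in the sources used here. Of 56884 gene identifiers, 51948 had a symbol in GENCODE M21. Total counts were 27188854 to 47113661 per library, and counting error is largest for genes of few counts such as Tlr1.

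The fit used edgeR 4.0.16 in R 4.3.3, with TMM scaling, the tool's own expression filter (17622 genes passed), quasi-likelihood testing and p-values adjusted by Benjamini-Hochberg. The limit for a call was an adjusted p of 0.05, and calls beyond a log2 fold change of 1 were counted separately. Log2 CPM used a prior count of 2. DESeq2 1.42.0, the tool of the study, was an alternative, with other scalings, filters, a choroid plexus covariate and leaving out each mouse. Where labels name separate mice, each library is 1 replicate. The code was tested on simulated data. The members and gene lists were chosen with earlier results of these data known. Named genes are the 10 members, called genes of each pathway list (at most 6 by p, or the 2 lowest p where none was called) and the 3 most correlated genes of each member. Ccl4, marker genes (P2ry12, Tmem119, Csf1r, Gfap, Ighm, Pax5) and genes opposite a member (Mast4, Acaa1a, Gm45542) were named beyond this rule, after their values were seen.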

Additional observations from a re-analysis of the deposited data

Results flagged for a closer look

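Within-group values were checked for a mouse far from the other 4, by the gap to its nearest neighbour divided by the range of the group. Of 44 groups checked, 8 passed the limit for 5 values, where chance gives about 2.2 (1 in 20). Among the members, Tlr6 in DHT-treated females had replicate 1 highest (gap over range 0.736) and Tlr3 in void-treated females had replicate 5 highest (0.782). The summed homeostatic microglia markers had void replicate 10 highest (0.722) and DHT replicate 1 highest (0.801). T cell markers had void replicate 5 highest (0.798) and astrocyte markers DHT replicate 1 highest (0.817). Red blood cell markers had void replicate 5 highest (0.718) and DHT replicate 1 highest (0.807). DHT replicate 1 was thus apart in 4 of the 8 groups. Without it, 2 members were called beyond a log2 fold change of 1 rather than 4. Over all genes tested, the same step took the number called higher beyond that limit from 382 to 175.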

How the results depend on the processing

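No member changed sign in any setting. With a choroid plexus covariate no gene was called: all genes higher 0 and lower 0, beyond the fold limit 0 and 0, members 0 and 0 beyond it, pathway genes 0, although 998 genes were higher and 250 lower at an unadjusted p under 0.05. The choroid plexus level and treatment moved together, and the cause of the lost calls was not tested. DESeq2 called 226 genes lower, 7 of them beyond a log2 fold change of -1, and without a filter beyond 1 count edgeR called 8. Leaving out each mouse gave 351 to 1072 genes higher and 5 to 77 lower, and beyond the fold limit 175 to 513 higher and 0 to 7 lower. Members called numbered 3 to 6 (3 without void replicate 11), and 2 to 5 beyond the fold limit (2 without DHT replicate 1). Pathway genes called numbered 9 to 15 (9 without void replicate 11). DESeq2 called 7 members and the other edgeR settings, the covariate aside, 6. No paired analysis was possible because the labels name neither pairs nor litters. Depth limits Tlr1 most, with 10 to 35 counts per void library.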
